A study of Mus musculus with 12 samples.

Results

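The genes described here encode 43 assembly factors of the large (60S) ribosomal subunit and abundant proteins of the nucleolus, chosen by symbol from the 24221 rows of the authors' deposited table. All 43 symbols were found, and all 43 genes had an adjusted p-value. They were followed in mouse acute myeloid leukaemia cells of the C57BL/6 strain, transformed by MLL-AF9, a fusion oncoprotein of human leukaemia. The tested cells carried loxP-flanked Riok2 alleles (Riok2fl/fl) and were treated with hydroxytamoxifen (OHT), a ligand that activates tamoxifen-dependent Cre recombinases. Their controls were the same Riok2fl/fl MLL-AF9 cells given the vehicle ethanol (EtOH), so that the fusion and the floxed alleles were shared by both groups. No labelled sample had OHT without the floxed alleles. Effects of OHT itself or of Cre activity therefore cannot be told apart from those of Riok2 loss. RNA was collected 72 h after addition, from 3 samples a group. Labels for 3 samples of MLL-AF9 cells with 1 µM RIOK2 inhibitor and 3 with DMSO were also read, and those cells are not analysed here. The labels do not name the Cre transgene, and they do not say whether the replicates were separate cultures or clones. The p-values therefore cover the scatter of these 3 samples a group, and that scatter may be technical.

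Ribosomal RNA is made in the nucleolus, where assembly factors fold and trim it and add ribosomal proteins. The precursor of the large subunit then passes through the nucleoplasm and the nuclear pore, and its last factors are released in the cytoplasm. RIOK2 is an atypical kinase of the small (40S) subunit pathway. The genes below were chosen as factors of the other branch of ribosome assembly or as abundant nucleolar proteins. Not all of them act in that branch alone. Growing leukaemia cells depend on this supply of ribosomes, and the nucleolar protein NPM1 is often mutated in human acute myeloid leukaemia.

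The values are the authors' own summaries over libraries, with no value per sample. The base mean is the number of reads divided by library size factors and averaged over the libraries of the comparison. The fold change is given on the log2 scale with its standard error (SE). The table does not state which group is the numerator. Riok2 itself stood at -3.60 ± 0.20 (SE) in the authors' deposited table, 8.25% of the EtOH level with a 95% interval of 6.28 to 10.8%, and all folds are read as OHT over EtOH on that ground. Base means in the authors' deposited table summed to 20307732 normalised reads per library. A gene was called lower or higher where the adjusted p-value of the authors' DESeq2 Wald test was under 0.05.

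The labelled myeloid origin was checked on marker genes. Of 10 myeloid and MLL-AF9 leukaemia markers, all 10 were detected, with base means of 59.6 to 52333 in the authors' deposited table. By the authors' DESeq2 test at an adjusted p under 0.05, 5 of these 10 fell and 2 rose in OHT, with a median log2 fold of -0.42 in the authors' deposited table. The granule genes Mpo (-2.37 ± 0.23) and Elane (-1.60 ± 0.17) fell, as did Hoxa9 (-0.55 ± 0.19), Hoxa10 (-0.42 ± 0.14) and Meis1 (-0.41 ± 0.14), which are known for high expression in MLL-fusion leukaemia (SE, the authors' deposited table). Ptprc, the pan-leukocyte antigen, rose by 1.10 ± 0.12 and the myeloid transcription factor gene Spi1 by 0.71 ± 0.13 (SE, the authors' deposited table). Mpo had a lower fold than any of the 43 genes. Of 10 markers of mature neutrophils and macrophages, 10 rose in OHT, by 1.75 to 4.39 on the log2 scale (median 2.91) in the authors' deposited table. The summed base mean of the erythroid markers was 32.6 in the authors' deposited table, and their defining globins Hba-a1 and Hbb-bs were at 0. The 8 lymphoid markers summed to 571 normalised reads in the authors' deposited table, with 3 of them at 0, Cd3e and Ms4a1 included. Of the 5 lymphoid markers tested, 2 fell, Lck (-2.49) and Cd79b (-1.02), and 2 rose, Cd3d (1.66) and Cd79a (1.95), in the authors' deposited table. The stromal and endothelial markers summed to 1657 normalised reads in the authors' deposited table. Pecam1, which was not called, held 1579 of these reads. Of the 3 markers tested there, Col1a1 rose by 1.48, at a base mean of 35.3. Mast cell, basophil and eosinophil markers summed to 21754 normalised reads in the authors' deposited table. None of the 3 tested there was called, and their log2 folds ran from 0.64 to 1.47. Their SEs were wide, from 0.62 (Cpa3) to 0.74 (Ms4a2). The other markers, Mcpt8, Prg2 and Epx, had base means of 3144, 2880 and 379 and a fold but no p-value. Such rows numbered 51 in the authors' deposited table, and what left them without a p-value was not tested. The part of all these markers in the values below was not tested.

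Almost all of the 60S assembly genes were lower after OHT. Of the 43, 40 fell and 0 rose by the authors' DESeq2 test, and the other 3 were not called. At an unadjusted p under 0.05 (DESeq2), 41 were lower and 0 higher. Of all 13814 genes tested, 3856 were higher at that unadjusted threshold, and those lower were not counted. At an adjusted p under 0.05 (DESeq2), 23.4% of these 13814 genes were called lower and 25.5% higher in the authors' deposited table. Among the 7003 tested genes at a base mean of 500 or more, a level that every member exceeded, 31.6% were called lower. The median log2 fold change of the 43 genes was -1.09, against 0.050 over all genes tested in the authors' deposited table. That median corresponds to 47.1% of the EtOH level. Folds ran from -1.86 for Npm1 to -0.22 for Mdn1 in the authors' deposited table, and 24 of the 43 lay below -1, a value that 8.27% of all genes tested lay below.

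**Figure D1:**
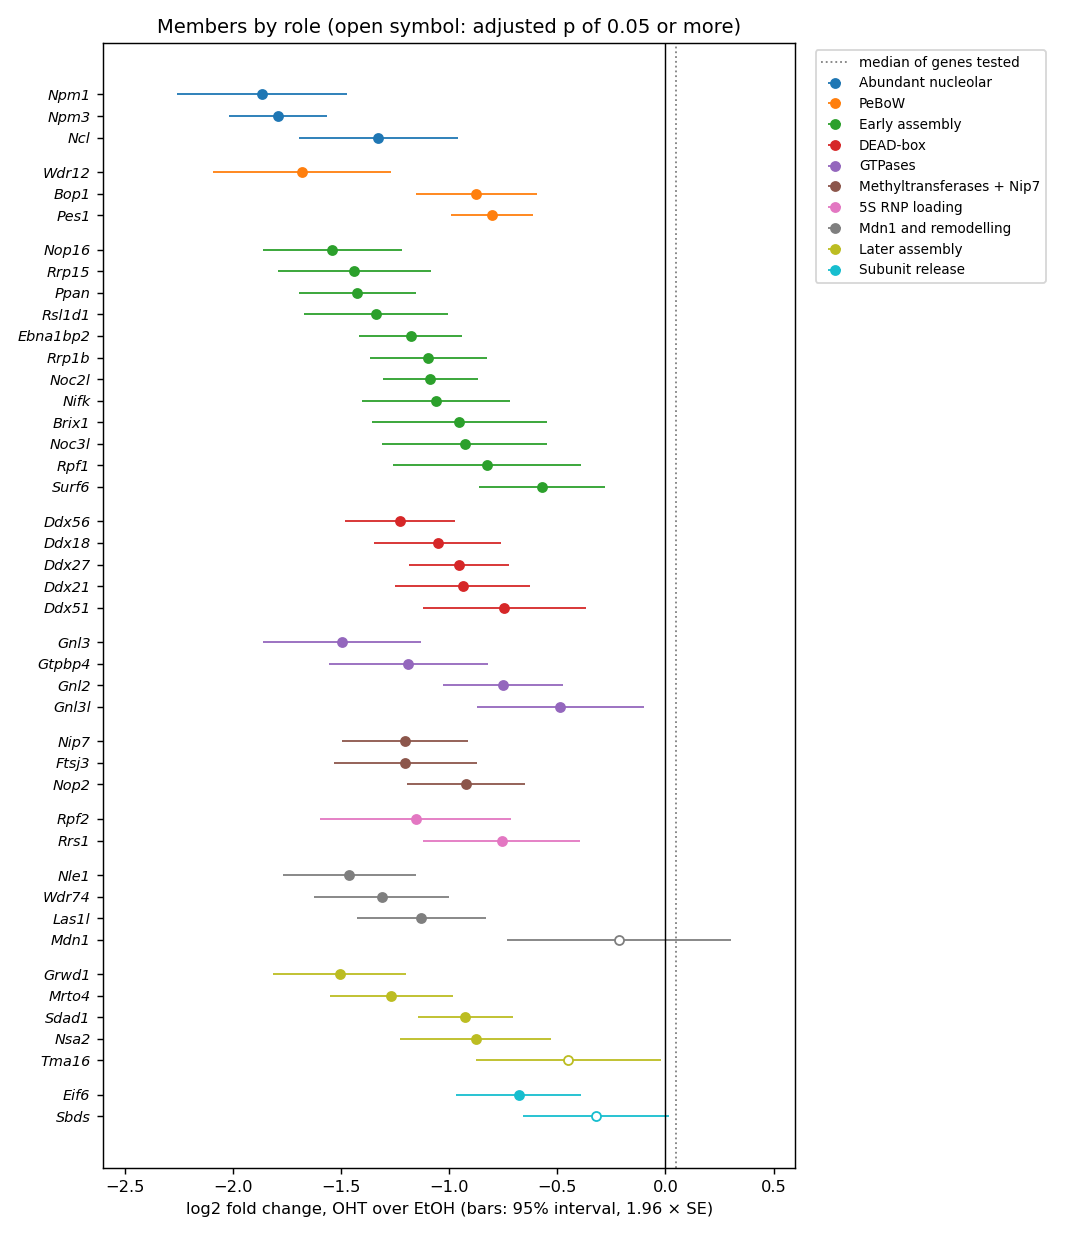
Log2 fold change, OHT over EtOH, of the 43 genes ordered by role. Points are the deposited folds, bars are 95% intervals from the SE, and open symbols mark the 3 genes (Mdn1, Tma16 and Sbds) that were not called. Every point lies below 0, and the Npm1, Npm3 and Wdr12 points lie furthest to the left.

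Fewer cells with a transcript and less of it per cell cannot be told apart in such bulk RNA. Levels are relative to library size factors, so a change in total RNA per cell would not show in them. Only RNA was measured, and a fall of a protein, role or complex named below is that of its transcripts. Group levels were worked out from each base mean and fold. Together the 43 genes held 81562 normalised reads per library in OHT and 194380 in EtOH. This was 0.392% of the implied total in OHT and 0.982% of that in EtOH. Npm1 and Ncl alone made up 43.7% of the summed base mean of the list.

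**Figure D2:**
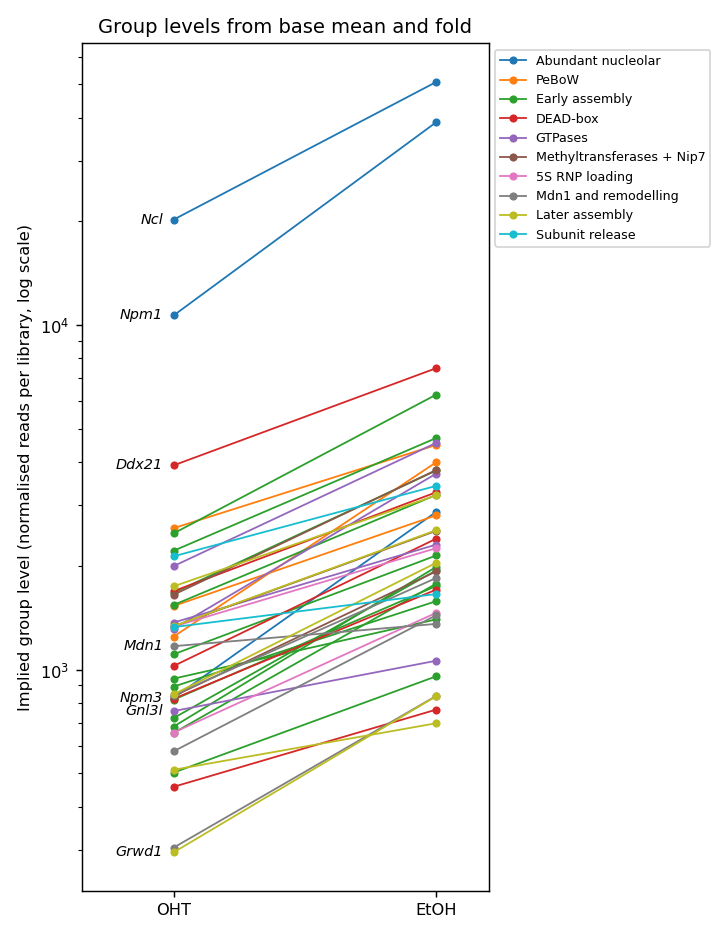
Implied level of each of the 43 genes in OHT (left) and EtOH (right), in normalised reads per library on a log scale, computed from base mean and fold. Each line is 1 gene, coloured by role, and each line is lower on the OHT side. Ncl and Npm1 stand above all others at 20235 and 10666 normalised reads in OHT.

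The start regions of the genes are shown because so many of them fell together. RefSeq start regions on GRCm38.p6, each with 250 bases before and 50 after the annotated start, were found for 35 of the 43 genes. None was used here for Npm1, Bop1, Eif6, Gnl2, Gnl3l, Rpf1, Rrs1 and Sbds. The 5 printed here are Npm3, which had the smallest p-value of the list, then Nop2, Grwd1 and Rpf2, which hold both motifs marked, and Mdn1, which holds an E-box and was not called. Each reads 5′ to 3′ on the gene's strand, with the E-box CACGTG and the ETS motif CCGGAAG, on either strand, in capitals. They lie at chr19:45749516-45749815 (minus strand), chr6:125131633-125131932 (plus), chr7:45830740-45831039 (minus), chr10:40246990-40247289 (minus) and chr4:32656869-32657168 (plus).
Npm3: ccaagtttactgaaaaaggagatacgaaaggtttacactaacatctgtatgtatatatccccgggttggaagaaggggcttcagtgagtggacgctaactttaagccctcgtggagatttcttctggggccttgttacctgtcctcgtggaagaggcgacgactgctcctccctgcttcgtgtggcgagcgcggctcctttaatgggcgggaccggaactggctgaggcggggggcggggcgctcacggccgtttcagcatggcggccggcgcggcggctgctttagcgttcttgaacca
Nop2: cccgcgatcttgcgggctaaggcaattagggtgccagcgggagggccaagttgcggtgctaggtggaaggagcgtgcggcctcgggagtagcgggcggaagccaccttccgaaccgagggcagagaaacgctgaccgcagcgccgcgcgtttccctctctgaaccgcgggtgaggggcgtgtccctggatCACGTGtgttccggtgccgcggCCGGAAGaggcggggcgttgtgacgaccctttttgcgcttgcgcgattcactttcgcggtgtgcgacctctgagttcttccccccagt
Grwd1: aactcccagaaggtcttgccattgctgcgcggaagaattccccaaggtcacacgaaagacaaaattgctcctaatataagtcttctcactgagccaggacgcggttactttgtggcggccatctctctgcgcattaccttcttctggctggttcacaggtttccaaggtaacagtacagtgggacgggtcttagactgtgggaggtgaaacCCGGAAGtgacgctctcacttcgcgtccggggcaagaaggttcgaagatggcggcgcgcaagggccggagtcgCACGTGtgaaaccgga
Rpf2: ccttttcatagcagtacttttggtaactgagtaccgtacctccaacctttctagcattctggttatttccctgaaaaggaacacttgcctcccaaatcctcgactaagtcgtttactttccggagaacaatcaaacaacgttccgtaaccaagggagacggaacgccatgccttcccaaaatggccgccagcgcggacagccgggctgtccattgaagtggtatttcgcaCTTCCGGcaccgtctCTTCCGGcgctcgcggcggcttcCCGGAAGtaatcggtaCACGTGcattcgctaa
Mdn1: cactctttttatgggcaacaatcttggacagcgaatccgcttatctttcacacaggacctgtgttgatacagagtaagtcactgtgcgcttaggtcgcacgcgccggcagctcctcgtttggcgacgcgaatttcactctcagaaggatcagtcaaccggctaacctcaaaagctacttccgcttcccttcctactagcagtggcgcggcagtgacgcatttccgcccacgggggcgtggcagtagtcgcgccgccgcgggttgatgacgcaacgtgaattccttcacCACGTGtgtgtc
The Nop2 E-box began 60 bases before the start, and those of Grwd1 and Rpf2 each began at base 35 after it. In Mdn1 the E-box began at base 39 after the start. Rpf2 carried 3 ETS motifs, at bases -20, -5 and 19 from the start. Npm3 held neither marked motif in this window.

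The E-box, the core that MYC and its partners are known to bind, was present in 8 of 35 start regions (22.9%). It was present in 12.8% of the 5485 matched genes that were tested at a base mean of 500 or more, and in 8.09% of all 27025 genes of the RefSeq table. The ETS motif was present in 15 of the 35 (42.9%), beside 24.6% and 9.93% in the same pair of backgrounds. The GC box GGGCGG was found in 71.4% of the 35, 72.4% of the expressed genes and 38.2% of all. The CCAAT motif was found in 22.9%, 43.2% and 41.1%. The motif of the factor NRF1, searched in its 10-letter palindromic form, was found in 0 of the 35, 2.97% and 1.07%. Some genes have more than 1 annotated start, and any match counted. Overlap between motifs was allowed, and no test of these shares was made. Of the 35 genes, 33 were called lower and the other two, Mdn1 and Tma16, were not. Those called lower were 15 of 15 with an ETS motif, 6 of 8 with an E-box, 23 of 25 with a GC box and 8 of 8 with CCAAT, all to be read against that 33 of 35. Genes with an E-box had a median log2 fold change of -0.92 and those without one -1.19. With and without an ETS motif the medians were -1.15 and -1.14, with and without a GC box -1.18 and -1.11, and with and without CCAAT -1.11 and -1.18.

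The 3 genes grouped as abundant nucleolar proteins had the largest median change of any role, -1.79. The roles were chosen with earlier results of these data known. The median is the fold of Npm3, whose base mean of 1849 lay near the median of 1712 over the 43 genes. Npm1 encodes nucleophosmin, a multimeric chaperone of the granular part of the nucleolus. With a base mean of 24740, its fold on the log2 scale was -1.86 ± 0.20 (SE, adjusted p = 4.87e-19, DESeq2) in the authors' deposited table. The normalised level of Npm1 in OHT was 27.5% of that in EtOH (95% interval 20.9 to 36.1%), and 0.854% of all genes tested had a lower fold. Npm3, a smaller nucleoplasmin-family protein that binds nucleophosmin, had a base mean of 1849 and a fold of -1.79 ± 0.12 (SE, adjusted p = 3.88e-51, DESeq2) in the authors' deposited table. The 95% intervals of the Npm1 and Npm3 folds overlapped. Nucleolin, encoded by Ncl, binds ribosomal RNA precursors and had the highest base mean of the list at 35509. It fell by 1.33 ± 0.19 (SE, adjusted p = 1.58e-11, DESeq2) in the authors' deposited table. Per kilobase of coding sequence, Npm1 stood above Ncl, with 28242 and 16742 normalised reads. The next gene on that scale, Eif6, had 3773.

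Npm1 lies at GRCm38 chr11:33152287-33163206 on the minus strand, Npm3 at chr19:45747734-45749591 on the minus strand and Ncl at chr1:86344719-86359400 on the minus strand. Reads of Npm1 and Npm3 are uncertain in part. Npm1 has 3 processed pseudogenes in GENCODE M21 with 92.4 to 95.1% identity over 50% or more of its transcript. Npm3 has 1, Npm3-ps1, with 98.9% identity, which had a base mean of 18.0 in the authors' deposited table. No source used here says how reads shared between such copies were counted.

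The PeBoW complex had all 3 of its transcripts called lower. Its subunits Pes1, Bop1 and Wdr12 are needed for cutting the spacers that flank the 5.8S and 28S RNAs. Wdr12 had a base mean of 2623 and a fold of -1.68 ± 0.21 (SE, adjusted p = 3.08e-14, DESeq2) in the authors' deposited table, or 31.2% of the EtOH level. Pes1, the most abundant subunit at a base mean of 3531, had -0.80 ± 0.10 (SE, adjusted p = 2.04e-15, DESeq2) in the authors' deposited table, or 57.3%. Bop1 had -0.87 ± 0.14 (SE) in the authors' deposited table. Wdr12 thus had a fold whose 95% interval did not reach those of its partners, as the plot of folds by role shows, although the difference between genes was not tested. Pes1 has 1 near-identical processed pseudogene.

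All 12 early nucleolar assembly factors fell, with a median fold of -1.09. The steepest was Nop16, a factor of early 60S particles, with a base mean of 1335 and -1.54 ± 0.16 (SE, adjusted p = 2.76e-19, DESeq2) in the authors' deposited table. Rsl1d1, a nucleolar protein with a ribosomal L1 domain, was the most abundant of these at 4384 and fell by 1.34 ± 0.17 (SE, adjusted p = 5.48e-14, DESeq2) in the authors' deposited table. Surf6, counterpart of yeast Rrp14, fell least, by 0.57 ± 0.15 (SE, adjusted p = 4.27e-04, DESeq2) in the authors' deposited table. Normalised levels in OHT were 67.3% of those in EtOH for Surf6 and 34.4% for Nop16.

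The BRIX-domain proteins, an RNA-binding family of early assembly, were all called. In the authors' deposited table Ppan, the counterpart of yeast Ssf1, stood at -1.42 ± 0.14 (SE). Rpf2 had -1.15 ± 0.22, Brix1 -0.95 ± 0.21 and Rpf1 -0.82 ± 0.22 there (SE, the authors' deposited table). Rrp15, a factor of early 60S particles, had -1.44 ± 0.18 and Ebna1bp2, yeast Ebp2, had -1.18 ± 0.12 in the authors' deposited table. Rrp1b, which also targets a protein phosphatase to the nucleolus, had -1.10 ± 0.14 and Nifk, which binds the proliferation antigen Ki-67, had -1.06 ± 0.17 in the authors' deposited table. Noc2l and Noc3l, counterparts of a yeast pair that works in pre-60S transport, had -1.09 ± 0.11 (Noc2l) and -0.93 ± 0.19 (Noc3l) in the authors' deposited table.

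All 5 DEAD-box helicases, which unwind RNA in the growing particle, fell within a narrow range. Ddx56 had the largest change, with a base mean of 1712 and -1.23 ± 0.13 (SE, adjusted p = 2.25e-19, DESeq2) in the authors' deposited table. Ddx21, which also acts in transcription by RNA polymerases I and II, was the most abundant at 5707 and had -0.94 ± 0.16 (SE, adjusted p = 3.26e-08, DESeq2) in the authors' deposited table. Ddx51, which acts on the 3′ end of the 28S precursor, had the smallest change at -0.74 ± 0.19 (SE, adjusted p = 4.18e-04, DESeq2) in the authors' deposited table. Ddx18 and Ddx27, counterparts of yeast Has1 and Drs1, lay between them at -1.05 ± 0.15 and -0.95 ± 0.12 in the authors' deposited table. Their 95% intervals overlapped with one another throughout. Ddx18 has 3 processed pseudogenes with up to 99.3% identity and is uncertain.

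The GTPases of the pathway fell by unequal amounts. Gnl3, nucleostemin, known from stem and tumour cells, had a base mean of 2511 and -1.50 ± 0.19 (SE, adjusted p = 1.64e-14, DESeq2) in the authors' deposited table. Gtpbp4, counterpart of yeast Nog1 and the most abundant of the group at 3274, had -1.19 ± 0.19 (SE, adjusted p = 2.18e-09, DESeq2) in the authors' deposited table. Gnl2, yeast Nog2, had -0.75 ± 0.14 in the authors' deposited table. Gnl3l, the paralog of nucleostemin, had -0.49 ± 0.20 (SE, adjusted p = 0.0305, DESeq2) in the authors' deposited table, the called gene nearest to the threshold. The paralogs thus stood at 35.5% (Gnl3) and 71.4% (Gnl3l) of the EtOH level, with 95% intervals of 27.6 to 45.7% and 54.6 to 93.4% that did not overlap; the difference itself was not tested. The exons of Gnl3 overlap those of Pbrm1 on the opposite strand.

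RNA-modifying enzymes and their partner fell together. Nop2, a cytosine methyltransferase of the 28S RNA, had -0.92 ± 0.14 (SE, adjusted p = 3.36e-10, DESeq2) in the authors' deposited table. Ftsj3, counterpart of the yeast ribose methyltransferase Spb1 and the most abundant of this group at a base mean of 2723, had -1.20 ± 0.17 (SE, adjusted p = 1.71e-11, DESeq2) in the authors' deposited table. Nip7, which partners Nop2 in yeast, had -1.20 ± 0.15 (SE, adjusted p = 1.47e-14, DESeq2) in the authors' deposited table. The factors that bring the 5S RNA and its proteins into the particle, Rpf2 and Rrs1, were both called. Rrs1, the more abundant at 1792, had -0.76 ± 0.18 (SE, adjusted p = 1.69e-04, DESeq2) in the authors' deposited table. Rpf2 had a base mean of 1059 and an adjusted p of 1.62e-06 (DESeq2) in the authors' deposited table. Each of the pair has 1 near-identical processed pseudogene.

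Mdn1 changed less than the other genes of its role, although the difference was not tested. Midasin, its product, is a very large AAA-type ATPase that pulls assembly factors off the particle. Mdn1 had a base mean of 1263 and a fold of -0.22 ± 0.26 (SE, adjusted p = 0.524, DESeq2) in the authors' deposited table. OHT cells held 86.1% of the EtOH level (95% interval 60.2 to 123%), so that a fall of the list's median size lay outside the interval. Nle1, the counterpart of the yeast protein that midasin pulls on, had a base mean of 572 and fell by 1.46 ± 0.16 (SE, adjusted p = 3.94e-19, DESeq2) in the authors' deposited table. Wdr74, yeast Nsa1, fell by 1.31 ± 0.16 in the authors' deposited table. Las1l, the endonuclease that cuts the spacer between 5.8S and 28S RNA, was the most abundant of this group at 1344 and fell by 1.13 ± 0.15 (SE, adjusted p = 1.44e-12, DESeq2) in the authors' deposited table. Mdn1 lies at GRCm38 chr4:32657119-32775217 on the plus strand and has the longest coding sequence of the list, 16746 bases. It also had the widest SE of the 43 and, per kilobase of coding sequence, the lowest level at 75.4 normalised reads.

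Later assembly factors and chaperones were mostly lower. Grwd1, the chaperone of ribosomal protein Rpl3 (yeast Rrb1), had the lowest base mean of the list at 566 and fell by 1.51 ± 0.16 (SE, adjusted p = 3.49e-20, DESeq2) in the authors' deposited table. Mrto4, a placeholder for the stalk protein P0, fell by 1.27 ± 0.15 in the authors' deposited table and has 2 processed pseudogenes of at least 97.3% identity. Nsa2, the most abundant of this group at 2475, fell by 0.88 ± 0.18 (SE, adjusted p = 4.27e-06, DESeq2) in the authors' deposited table. Sdad1, yeast Sda1, had -0.93 ± 0.11 in the authors' deposited table. Tma16, known as a pre-60S factor in yeast, had -0.45 ± 0.22 (SE, adjusted p = 0.0765, DESeq2) in the authors' deposited table and was not called. Its unadjusted p was 0.0397 there (the authors' deposited table).

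The 2 factors in the role of freeing the finished subunit had the smallest median change of any role, -0.50. The roles were chosen with earlier results known, and the export and cytoplasmic factors read separately below had a median of -0.81. Eif6 keeps the 60S subunit from joining the 40S subunit too early. Eif6 had a base mean of 2773 and -0.68 ± 0.15 (SE, adjusted p = 2.12e-05, DESeq2) in the authors' deposited table, or 62.5% of the EtOH level. Sbds, the protein lacking in human Shwachman-Diamond syndrome, helps to remove EIF6. It had a base mean of 1492 and -0.32 ± 0.17 (SE, adjusted p = 0.116, DESeq2) in the authors' deposited table, or 80.2% with a 95% interval of 63.4 to 101%.

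**Figure D3:**
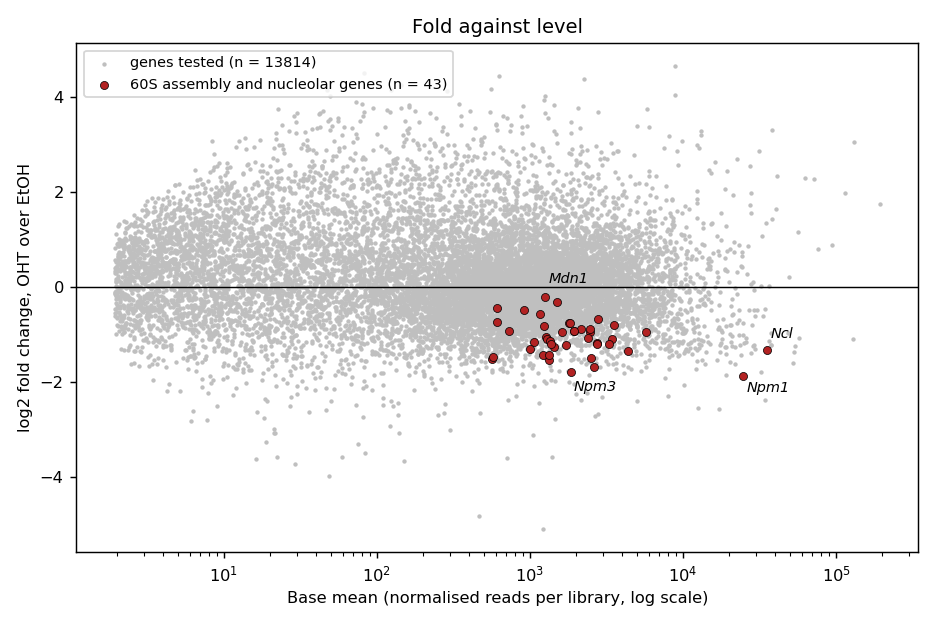
Log2 fold change, OHT over EtOH, against base mean on a log scale for the 13814 genes tested (grey) and the 43 genes described (red). The 43 lie below 0 and in the upper part of the range of levels, from 566 normalised reads for Grwd1 to 35509 for Ncl.

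Size of change and level were only loosely related across the 43 genes. Spearman's rho between fold and base mean was -0.16, and between fold and coding length 0.22 (0.17 without Mdn1). Across 6734 tested genes at a base mean of 500 or more that have a coding length, the rho of fold and coding length was 0.27. All these genes were measured in the same libraries, so they are not independent. SEs of the 43 ran from 0.096 for Pes1 to 0.264 for Mdn1, with a median of 0.159, and the median over all tested genes at such base means was 0.160. Counting error alone, at the implied levels and 3 libraries a group, would give SEs of 0.0069 (Ncl) to 0.0564 (Grwd1). The deposited SE was 27.0 times the counting SE for Ncl, 22.0 times for Npm1 and 2.78 times for Grwd1. Counting error was thus a small part of the deposited SEs.

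Some of the genes share exon sequence with a neighbour. Exons of 14 of the 43 overlap those of another gene other than a small RNA. The partners include Samd11 for Noc2l, Dnali1 for Gnl2, Carf for Wdr12, Mroh1 for Bop1, Fndc8 for Nle1, and Fam169a and Gfm2 for Nsa2, all on the opposite strand. No source used here gives the strand setting of the count, so reads of such pairs cannot be told apart. Of the 43, 7 have near-identical copies, and 2 of these 7 (Npm3 and Pes1) are also among the 14. Among the 24 genes with neither, 21 were called lower, with a median fold of -1.01; this subset was chosen after the values were seen. The genes Ncl, Gnl3 and Ppan hold 8 annotated small nucleolar RNAs between them. These are RNAs of the kind that guide modification of ribosomal RNA and are made from introns.

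Other genes of 60S assembly gave the following counts. Of 28 further nuclear factors, 25 fell and 0 rose, with a median of -0.62 in the authors' deposited table. The steepest were Lyar (-1.51 ± 0.18), Wdr18 of the complex that works with midasin (-1.33 ± 0.15) and Llph (-1.11 ± 0.19) in the authors' deposited table. Of the same complex, Nol9 (-0.72 ± 0.18), Pelp1 (-0.65 ± 0.14), Tex10 (-0.47 ± 0.14) and Senp3 changed less than Wdr18 (SE, the authors' deposited table). Ddx24, Senp3 and Ccdc86 were not called, with -0.19, -0.18 and -0.0015 in the authors' deposited table. The list has no dedicated export adaptor among its 43 genes, so export and cytoplasmic factors were read separately. Of 14 such genes, 11 fell and 0 rose, with a median of -0.81 in the authors' deposited table. The adaptor Nmd3 had -0.87 ± 0.19 and the exportin Xpo1 -0.43 ± 0.12 in the authors' deposited table. The steepest were Zfp593 (-1.66 ± 0.21), Pa2g4 (-1.38 ± 0.12) and Heatr3 (-1.13 ± 0.20) in the authors' deposited table. Zfp622, Nxf1 and Efl1, listed there as Eftud1, were not called, with -0.41, 0.14 and -0.08 in the authors' deposited table. Efl1 encodes the GTPase that works with SBDS.

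Other groups of ribosome genes were read beside the 43 genes, with their median of -1.09. The 45 small-subunit processome genes had 43 lower and 0 higher, with a median of -0.87 in the authors' deposited table. The steepest there (the authors' deposited table) were Wdr43 (-1.45), Rrp9 (-1.42) and Imp3 (-1.33), and Heatr1 (-0.23) and Rrp36 (-0.20) were not called. All 46 tested 60S ribosomal protein genes were lower, with a median of -1.21 in the authors' deposited table, led by Rpl3 (-1.86), Rpl10a (-1.72) and Rpl34 (-1.60). Rpl34 had a base mean of 123 and Rpl30 of 56.6, beside a median of 10470 for this list. Ribosomal protein genes have many processed copies, and their counts are uncertain in part. Among 15 genes of RNA polymerase I and its factors, 12 were lower and 0 higher, with a median of -0.63 in the authors' deposited table. Polr1c (-1.46), Taf1d (-1.31) and Polr1b (-1.21) led them, and Taf1b (-0.46), Taf1c (-0.02) and Ttf1 (0.30) were not called in the authors' deposited table. At an unadjusted p under 0.05 (DESeq2), 1 gene of these 5 lists of other genes, Ttf1, was higher, beside 3856 of the 13814 genes tested. The differences between these groups were not tested.

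**Figure D4:**
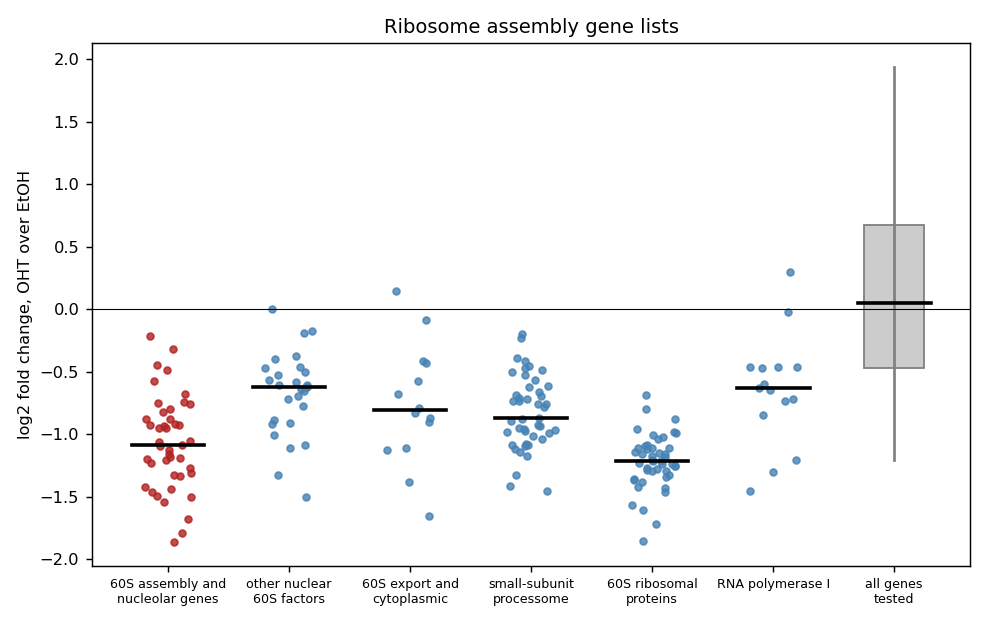
Log2 fold change, OHT over EtOH, of each tested gene in 6 ribosome assembly lists, with the median as a black line. At the right are all 13814 genes tested, with the box from the 25th to the 75th percentile (-0.47 to 0.67) and the line from the 5th to the 95th (-1.20 to 1.94). The medians of the 6 lists lie between -1.21 and -0.62.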

How the data were processed

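RNA of 3 OHT and 3 EtOH samples was compared by the authors, and 1 table of that comparison was used. The submitters' processing notes name the build mm10 and, in no stated order, DESeq2, DESeq, HTSeq 0.9.1, Trimmomatic 0.38.0 and STAR 2.7.2b. Annotation, counting options and strand setting: not given in the sources used here. Each deposited base mean is a signal, in reads normalised by the authors. The deposited fold change and its SE are on the log2 scale. A deposited Wald score, p-value and adjusted p-value follow. The score equalled fold over SE within 7.6e-08, and Benjamini-Hochberg adjustment of the deposited p-values over 13814 genes gave the adjusted ones within 2.3e-07. No SE in the table exceeds 0.747, as happens where a prior pulls folds towards 0. If that prior were normal with this SD or a wider one, the pull would be at most 1.67 to 12.5% for the 43 genes.

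No test of samples was made here, since values per sample fill 0 columns. Group levels were computed as those that give both the base mean and the fold. The 95% intervals are fold ± 1.96 SE. Gene positions and coding lengths came from GENCODE M21 on GRCm38 (the longest principal coding sequence). Near-identical copies had at least 90% identity over at least 50% of the shortest principal transcript in blastn 2.17.0. Start regions came from RefSeq on GRCm38.p6. Calculations used Python 3.11.15, pandas 2.3.3 and scipy 1.17.1, and the scaling and adjustment steps were tested on simulated data. The genes, their roles and all lists were chosen with earlier results of these data known. Every one of the 43 genes was named. Fold, SE and adjusted p were given for the most abundant gene and for the largest and smallest fold of each role, and for genes not called. Base means were given for these too, except for Surf6, Ddx51, Gnl3l, Nop2, Nip7 and Tma16. Of other lists the 3 steepest falls and those not called were named where few.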

Additional observations from a re-analysis of the deposited data

How the results depend on the processing

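The count of lower genes among the 43 stayed between 29 and 42 under the 8 alternative settings below, against 40 as reported, and 0 were called higher under each of these 8. It was 39 at a threshold of 0.01, 33 with Bonferroni adjustment, 29 when the log2 fold was tested against a minimum of 0.5, and 40 when all genes with a p-value, or those above a base mean of 100, entered the adjustment. Centring on the median of genes tested (a shift of 0.050), centring on genes above a base mean of 1000 (-0.0059) and a shift to equal total reads (0.072) gave 41, 40 and 42 lower. Tma16 passed under the first and last of these, and Sbds under the last, with adjusted p of 0.0475. Under the 3 scalings the median fold lay between -1.16 and -1.08, and it was -1.08 as a mean weighted by precision and -1.10 for the 37 members above a base mean of 1000. The share of all genes tested that was called was not worked out for the 8 alternative settings. The 23.4% called lower over all genes tested holds for the reported setting only. Without the 19 genes that overlap a neighbour or have near-identical copies, a subset chosen after the values were seen, 21 of the remaining 24 were lower. No paired analysis was possible because the table holds no value per sample, and leaving out each replicate and other tests (edgeR, limma) were not run for the same reason. Whether 1 library contributed to these falls was not tested.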
